A study of Mus musculus with 12 samples.

Results

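The Hox and Tbx genes were followed across 2 white fat depots and the liver. They were all genes of the array annotation whose symbol is Hox followed by a cluster letter from a to d and a number, or Tbx followed by a number. Only probes that carry a single gene symbol were used, and the brightest probe stood for a gene. This gave 49 of the 22180 genes on the array, namely 36 Hox genes (9 Hoxa, 10 Hoxb, 9 Hoxc and 8 Hoxd) and 13 Tbx genes. Hoxa11 and Hoxd4 were read only by probes with several symbols and were left out. RNA came from the epididymal (gonadal) and inguinal (subcutaneous) white fat and the liver of male mice of 2 genotypes, wild-type C57BL/6N and Mgl2-DTR on a C57BL/6N background, matched for age. Every mouse received diphtheria toxin into the abdomen, 500 ng a dose every 3 days, and tissue was taken on day 10, so the toxin is shared by both genotypes. Mgl2-DTR mice carry the receptor for the toxin under Mgl2, the gene for the lectin CD301b, and the toxin was given to deplete mononuclear phagocytes that carry CD301b. No group was left without toxin. Each of the 6 groups had 2 arrays, 12 in all.

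Hox genes encode homeodomain transcription factors that give cells along the body axis their position. They lie in 4 clusters, and the number of a gene follows its place in the cluster: low numbers act toward the head, high numbers toward the tail and in the limbs. Tbx genes encode T-box transcription factors that pattern limbs, heart, pharynx and skin, and some act in immune cells. Adult mesenchymal cells, those of fat among them, keep much of the Hox and Tbx pattern of the region they came from, and Tbx15 is a long-known marker of subcutaneous fat.

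The deposited levels are normalized log2 values, and a difference of 1 is a doubling. Levels were read between arrays for 1 gene, never between genes, since probes differ in brightness. The array medians lay between 5.19 and 5.28, and Pearson's r between the arrays of a group was 0.974 to 0.983 across all probes. Only 2 arrays per group limit the precision, and the labels do not say whether they came from separate animals, so a p-value here reflects only how far these samples scatter. Adipocyte markers averaged 11.43 to 11.99 on the fat arrays and 6.20 to 6.41 on the liver arrays, and hepatocyte markers 11.77 to 11.96 in liver and 5.47 to 6.58 in fat. Mgl2 read 7.07 to 7.46 in wild-type fat and 4.12 to 4.72 in Mgl2-DTR fat, while all 4 liver arrays lay between 4.03 and 4.59. 3 fat arrays stood apart by markers of other tissue. Epididymal Mgl2-DTR replicate 2 averaged 10.37 over 10 marker genes of the epididymal duct and sperm, against 4.88 to 5.10 in the other 3 epididymal arrays. Inguinal wild-type replicate 2 and Mgl2-DTR replicate 1 averaged 9.62 and 9.33 over 12 skeletal muscle genes, against 6.67 and 6.60 in the other inguinal arrays. Those also lay above the epididymal arrays, at 5.44 to 6.04, so leaving out the 2 muscle-bearing arrays need not remove all muscle signal. Epididymal wild-type replicate 1 also stood apart, without such markers. It was the highest epididymal array by more than 0.5 for 7.34% of the genes tested below. That share was 3.79% for Mgl2-DTR replicate 2, 0.858% for wild-type replicate 2 and 0.787% for Mgl2-DTR replicate 1.

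A gene was tested if it averaged above 5.71 in any tissue (4 arrays), the midpoint of the values of single-symbol probes. Of the 49 genes, 27 passed (19 Hox and 8 Tbx), 12 of them in all 3 tissues, 9 in both fat depots and not in liver, 5 in inguinal fat alone (Hoxa3, Hoxa9, Hoxc10, Tbx5 and Tbx15) and Hoxb3 in epididymal fat alone. Counted by tissue, 22 of 49 (44.9%) exceeded that level in epididymal fat, 26 (53.1%) in inguinal fat and 12 (24.5%) in liver, beside 51.4%, 51.5% and 50.4% of all genes. The other 22 were dim in every tissue, and 11 of these stayed below 5.04, the 95th percentile of 1105 olfactory receptor genes, in all 3 tissues. Among the dim genes were all 8 Hox genes numbered 11 to 13 (Hoxa13, Hoxb13, Hoxc11, Hoxc12, Hoxc13, Hoxd11, Hoxd12 and Hoxd13) that have a probe of their own here. A level under 5.71 may sit at the background of its probe, so a log2 difference from such a level is limited by that floor and is given without a fold.

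**Figure D1:**
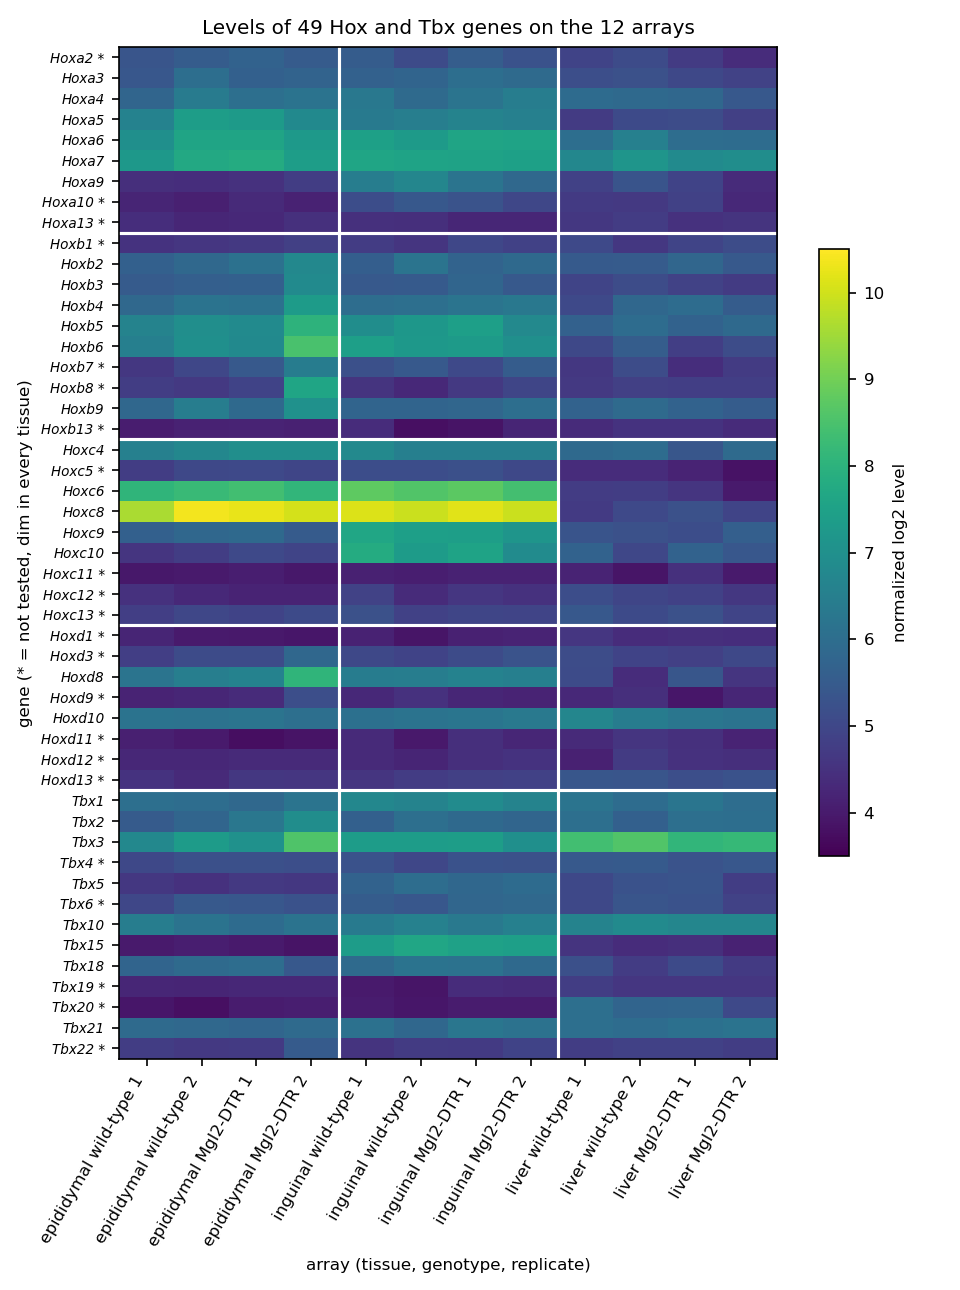
Normalized log2 level (colour) of the 49 Hox and Tbx genes (rows) on the 12 arrays (columns), with white lines between gene families and tissues and an asterisk on the 22 genes that were too dim to test. Colours compare arrays within a row, not genes with each other: Tbx15, Hoxc10, Hoxc9 and Hoxa9 stand out on the inguinal arrays, Hoxc8 and Hoxc6 on all fat arrays, and the Hoxb rows on 1 epididymal array.

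The first comparison asked where the genes differ between the subcutaneous and the gonadal depot. Inguinal minus epididymal fat was taken over both genotypes, 4 arrays against 4. Of the 27 tested Hox and Tbx genes, 6 were higher in inguinal fat (Tbx15, Hoxc10, Hoxa9, Hoxc9, Tbx5 and Tbx1) and 0 were lower, while 7.43% of the 12710 genes tested were called in either direction, 4.11% higher and 3.32% lower. Hoxa9, Hoxc10, Tbx5 and Tbx15 passed the filter through their inguinal level alone, so they could be tested only because they were high there. The depots did not overlap for 7 genes, these 6 and Hoxc6, beside 17.1% of all genes. The median difference was 0.07 over the tested members and 0.02 over all tested genes. Markers of fibro-adipogenic progenitors, the mesenchymal cells of fat (10 of 12 found), averaged 9.52 to 10.01 on the epididymal and 10.06 to 10.42 on the inguinal arrays, and their part in the depot difference was not tested.

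Tbx15, a T-box gene of skeleton and skin patterning, read 4.02 and 4.08 in wild-type and 4.0 and 3.88 in Mgl2-DTR mice in epididymal fat. In inguinal fat it read 7.37 and 7.63 in wild-type and 7.5 and 7.45 in Mgl2-DTR mice. The 4 inguinal arrays lay close together and far above the 4 epididymal ones, which were no higher than the liver arrays (4.17 to 4.54). The difference was 3.49 (SE 0.106; limma adjusted p = 7e-07), and it had the smallest p of all tested genes in this comparison. In bulk tissue, fewer cells of a type and less RNA per cell cannot be told apart, here and in every later comparison.

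Hoxc10, a posterior Hox gene of the lumbar region and hindlimb, read 4.59 and 4.77 in wild-type and 5.04 and 4.92 in Mgl2-DTR mice in epididymal fat. It read 7.80 and 7.34 in wild-type and 7.55 and 6.89 in Mgl2-DTR mice in inguinal fat. All inguinal arrays lay above all epididymal ones, and Mgl2-DTR replicate 2 was the lowest of the inguinal arrays. The difference was 2.56 (SE 0.199; limma adjusted p = 0.000151). Hoxc9, its neighbour in the cluster and a gene of the lower trunk, read 5.64 and 5.85 in wild-type and 5.88 and 5.51 in Mgl2-DTR mice in epididymal fat and 7.65 and 7.46 in wild-type and 7.42 and 7.16 in Mgl2-DTR mice in inguinal fat. Here too the depots did not overlap, with a difference of 1.70 (SE 0.138; limma adjusted p = 0.000175) or 3.26-fold, from an epididymal mean that lay just at the filter level.

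Hoxa9, the counterpart of Hoxc9 in the Hoxa cluster, read 4.46 and 4.41 in wild-type and 4.49 and 4.76 in Mgl2-DTR mice in epididymal fat. In inguinal fat the levels were 6.48 and 6.71 in wild-type and 6.20 and 5.87 in Mgl2-DTR mice, so that the depots did not overlap and both Mgl2-DTR arrays lay under both wild-type ones. The difference was 1.78 (SE 0.159; limma adjusted p = 0.000263). Hoxa10 was too dim to be tested, yet its arrays fell apart the same way, at 4.11 to 4.35 in epididymal fat, 5.0 to 5.42 in inguinal fat and 4.32 to 4.85 in liver. In a fit with no filter on dim genes its difference was 1.0 (SE 0.136, limma adjusted p = 0.00441). In that fit 7 of all 49 genes were called, the 6 above and Hoxa10, beside 907 of all 22180 genes.

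Hoxa9 and Hoxa10 lie next to each other, and the 250 bases before their start sites are shown here because both genes differed between the depots, while Hoxa5, a few genes further along the same cluster, did not pass. The sequences are from RefSeq (GRCm38.p6) and run 5′ to 3′ on the minus strand of chromosome 6. Capitals mark letters found by a search of both strands for 5 short motifs, which do not overlap here. These were the TATA box, spelled TATAAA; the CCAAT box, spelled by its name; the GC box, spelled GGGCGG; a site for Hox with Pbx proteins, spelled TGATNNAT; and a T-box site, spelled GGTGTGA.
Hoxa9 (chr6:52227371-52227620): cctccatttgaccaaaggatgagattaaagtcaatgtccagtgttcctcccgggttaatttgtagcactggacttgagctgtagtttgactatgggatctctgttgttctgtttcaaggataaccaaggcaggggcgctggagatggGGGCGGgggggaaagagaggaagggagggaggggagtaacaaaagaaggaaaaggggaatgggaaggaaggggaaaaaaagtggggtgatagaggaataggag
Hoxa10 (chr6:52234940-52235189): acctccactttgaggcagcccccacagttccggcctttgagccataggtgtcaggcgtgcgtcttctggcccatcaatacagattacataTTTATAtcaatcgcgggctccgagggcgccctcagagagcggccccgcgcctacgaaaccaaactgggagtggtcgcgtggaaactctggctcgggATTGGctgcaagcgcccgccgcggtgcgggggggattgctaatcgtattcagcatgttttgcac
Hoxa5 (chr6:52204588-52204837): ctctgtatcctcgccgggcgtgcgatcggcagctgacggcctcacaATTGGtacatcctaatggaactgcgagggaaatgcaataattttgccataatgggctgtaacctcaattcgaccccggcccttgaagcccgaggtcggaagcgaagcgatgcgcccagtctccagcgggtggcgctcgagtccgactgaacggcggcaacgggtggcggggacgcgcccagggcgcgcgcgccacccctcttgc
The Hoxa9 window holds the letters of 1 GC box and 3 CpG. That of Hoxa10 holds the letters of a TATA box and a CCAAT box, both read on the opposite strand, and 20 CpG. That of Hoxa5 holds the letters of a CCAAT box, also on the opposite strand, and 28 CpG. Over all 32841 promoters of the same length the median was 6 CpG, and 12.4% held the letters of the TATA box, 33.9% those of the CCAAT box, 32.7% of the GC box, 7.69% of the Hox-Pbx site and 3.33% of the T-box site. RefSeq gives Hoxa10 a further start, at chr6:52240855-52241104, whose window holds a GC box. Of the 49 genes, 29 had an entry in the promoter table, with 34 promoters.

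Tbx5, a gene of forelimb and heart, read 4.63 and 4.51 in wild-type and 4.68 and 4.64 in Mgl2-DTR mice in epididymal fat and 5.69 and 6.00 in wild-type and 5.85 and 5.95 in Mgl2-DTR mice in inguinal fat. The depots were again apart, by 1.26 (SE 0.137; limma adjusted p = 0.000975). Tbx1, a gene of the pharynx and the outflow tract of the heart, read 6.07 and 6.00 in wild-type and 5.87 and 6.18 in Mgl2-DTR mice in epididymal fat and 6.73 and 6.62 in wild-type and 6.88 and 6.62 in Mgl2-DTR mice in inguinal fat. Its groups did not overlap and the difference was smaller, at 0.68 (SE 0.115; limma adjusted p = 0.00882) or 1.61-fold. Without the 2 muscle-bearing inguinal arrays it was 0.65 and missed the threshold (limma adjusted p = 0.0989), while the other 5 genes were still called.

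**Figure D2:**
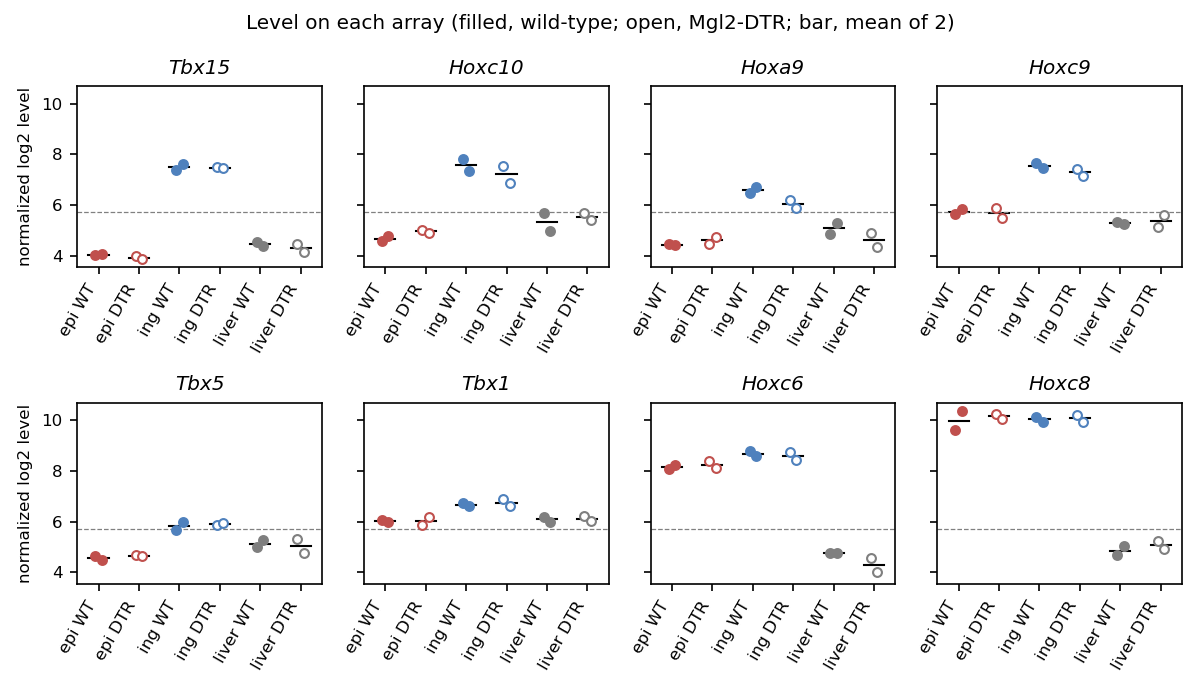
Normalized log2 level of 8 genes on each of the 12 arrays, by tissue (epi, epididymal fat; ing, inguinal fat) and genotype (filled points, wild-type or WT; open points, Mgl2-DTR or DTR), with a bar at the mean of 2 arrays and a dashed line at the filter level of 5.71. Tbx15, Hoxc10, Hoxa9, Hoxc9, Tbx5 and Tbx1 are higher in inguinal than in epididymal fat with no overlap, Hoxc8 overlaps between the depots, and Hoxc6 and Hoxc8 lie far above liver in both.

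In the Hoxa and Hoxc clusters the genes that passed all had number 9 or 10. Up to number 8 the tested differences ran from -0.52 for Hoxa5 to 0.42 for Hoxc6, and none passed. At numbers 9 and 10 they were 1.78 for Hoxa9, 1.70 for Hoxc9 and 2.56 for Hoxc10, and the untested Hoxa10 stood at 1.0. Hoxa9 and Hoxc10 passed the filter through inguinal fat alone, so their direction was partly fixed by the filter. Hoxa3 also passed it that way and was not called. Hoxc8, a gene of thoracic identity, read 9.60 and 10.37 in wild-type and 10.26 and 10.05 in Mgl2-DTR mice in epididymal fat and 10.12 and 9.93 in wild-type and 10.19 and 9.94 in Mgl2-DTR mice in inguinal fat. The depots overlapped, and the 95% interval of the difference was -0.42 to 0.38. Hoxa7 likewise differed by 0.01, with an interval of -0.33 to 0.34. A miss of the threshold does not show equal levels, but these intervals hold no difference of the size seen at Hoxa9, Hoxc9 or Hoxc10. Hoxc6 read 8.09 and 8.24 in wild-type and 8.39 and 8.10 in Mgl2-DTR mice in epididymal and 8.77 and 8.59 in wild-type and 8.72 and 8.42 in Mgl2-DTR mice in inguinal fat. All its inguinal arrays lay above all epididymal ones, with a difference of 0.42 (SE 0.144; limma adjusted p = 0.107). Hoxa5, a gene of the neck and upper trunk that also acts in the lung, leaned the other way, at -0.52 (SE 0.19; limma adjusted p = 0.124), with overlapping arrays.

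Beyond number 10 all genes with a probe of their own were too dim to test, and their means differed by -0.07 (Hoxb13) to 0.32 (Hoxd11). The same numbers in the Hoxb and Hoxd clusters were set beside these. Hoxb9 read 5.83 to 7.03 in epididymal and 5.74 to 6.02 in inguinal fat, a difference of -0.47 (SE 0.234; limma adjusted p = 0.242). Hoxd10 read 6.06 to 6.19 and 6.09 to 6.34, a difference of 0.07 with an interval of -0.15 to 0.29. Hoxd9 was too dim to test, at 4.20 to 5.19 and 4.20 to 4.49. The 6 tested Hoxb genes differed by -0.47 to 0.05 and none passed. Without epididymal Mgl2-DTR replicate 2 they ran from -0.18 (Hoxb9) to 0.46 (Hoxb6, limma adjusted p = 0.206), with Hoxb4 at 0.07 and Hoxb5 at 0.28 now above 0, and still none passed. Of the other Tbx genes, Tbx2, Tbx3, Tbx10, Tbx18 and Tbx21 differed by -0.28 to 0.27, and none passed either.

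**Figure D3:**
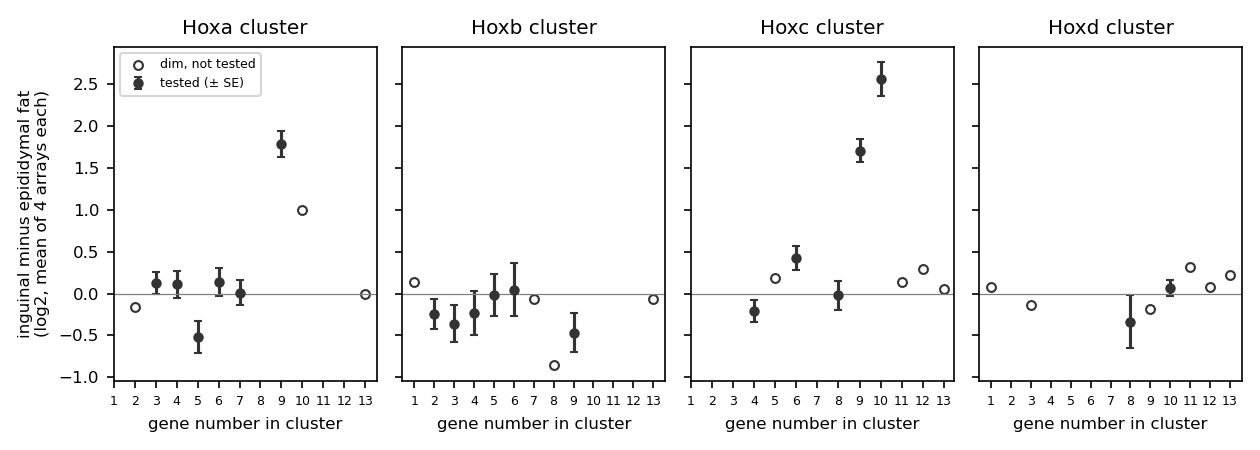
Inguinal minus epididymal difference in mean log2 level (4 arrays each) against the gene number, 1 panel per Hox cluster, with the standard error for tested genes (filled) and none for genes too dim to test (open). In the Hoxa and Hoxc clusters the tested points lie between -0.52 and 0.42 up to number 8 and between 1.70 and 2.56 at 9 and 10. Of the latter, Hoxa9 and Hoxc10 passed the filter through inguinal fat alone. In the Hoxb and Hoxd clusters no tested gene passed, and the low Hoxb8 point, at -0.86, comes with 1 epididymal array that reads 7.61.

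The depot comparison was then made within each genotype, on separate arrays, although both fits share 1 estimate of the spread. In wild-type mice Tbx15, Hoxc10, Hoxa9, Hoxc9 and Tbx5 were higher in inguinal fat, 5 of 27 with 0 lower, beside 1.49% of all genes called (0.834% higher and 0.661% lower). Mgl2-DTR mice gave the same 5 genes and again 0 lower, beside 1.96% of all genes (0.897% higher and 1.06% lower). The filter was set over both genotypes, and Hoxa9, Hoxc10, Tbx5 and Tbx15 passed it through inguinal fat alone. The direction of these calls and their match between genotypes are thus partly fixed by the filter. Tbx15 differed by 3.45 (limma adjusted p = 1.75e-05) in wild-type and by 3.53 (adjusted p = 1.55e-05) in Mgl2-DTR mice. The values were 2.89 and 2.24 for Hoxc10 and 1.81 and 1.60 for Hoxc9. For Hoxa9 they were 2.16 and 1.41, and for Tbx5 1.27 and 1.24. The depot difference itself was tested between genotypes, and by limma 0 of the 27 and 0 of all genes (0%) passed, with 2 of the 27 and 364 of all genes at an unadjusted p under 0.05. The 3 smallest p belonged to Tbx2 at -0.96, Hoxa9 at -0.75 and Hoxb2 at -0.77 (each limma adjusted p = 0.995). Without the 2 muscle-bearing inguinal arrays, which left 1 inguinal array a genotype, Tbx15, Hoxc10 and Hoxc9 were still called in wild-type and Tbx15 alone in Mgl2-DTR mice, while the calls among all genes fell from 190 to 34 and from 249 to 53. The differences that lost their call were 2.05 for Hoxa9 and 1.12 for Tbx5 in wild-type mice, and 1.91 for Hoxc10, 1.47 for Hoxc9, 1.25 for Hoxa9 and 1.29 for Tbx5 in Mgl2-DTR mice. In Mgl2-DTR mice 3 members were called without epididymal replicate 2, inguinal replicate 1 or inguinal replicate 2, beside 95, 74 and 76 of all genes, and Hoxa9 (1.55, 1.25 and 1.57) and Tbx5 (1.22, 1.29 and 1.2) lost their calls. Without epididymal replicate 1, epididymal fat of these mice rested on replicate 2 alone, the array with duct genes, and nothing is read from that fit.

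Both depots were set against liver, the only other tissue here, so a gene above liver need not mark fat as such. In epididymal fat 21 of 27 were called, 15 higher and 6 lower than in liver, where 66% of all genes were called (39.5% higher and 26.4% lower). In inguinal fat 20 were called, 19 higher and 1 lower, beside 60.6% of all genes (37.8% higher and 22.8% lower). Most genes of any kind thus differed from liver, and nothing particular to Hox and Tbx genes is read from these counts. By family, 4 of 6 Hoxa, 5 of 6 Hoxb, 4 of 5 Hoxc, 1 of 2 Hoxd and 1 of 8 Tbx genes were higher in epididymal fat, and 6, 3, 5, 1 and 4 of them in inguinal fat. These comparisons share the 4 liver arrays, so they are given side by side and not as support for each other. The median of all tested genes was itself 0.14 in both comparisons, and 0.05 after arrays were centred on their medians.

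Hoxc8 read 4.68 and 5.03 in wild-type and 5.24 and 4.92 in Mgl2-DTR mice in liver, under the filter level and far below every fat array. It was 5.10 (SE 0.178; limma adjusted p = 8.44e-09) higher in epididymal and 5.07 (adjusted p = 8.46e-09) higher in inguinal fat. Hoxc6, also a thoracic gene, read 4.75 and 4.76 in wild-type and 4.57 and 4.01 in Mgl2-DTR mice in liver, and was 3.68 higher in epididymal (adjusted p = 1.95e-08) and 4.10 higher in inguinal fat (adjusted p = 8.42e-09). Both genes were thus far above liver in each depot. Tbx15 was 3.10 and Hoxc9 2.09 higher than liver in inguinal fat (adjusted p = 7.11e-09 and 8.91e-07), while in epididymal fat they stood at -0.39 and 0.38. Hoxc10 was 1.94 higher than liver in inguinal fat and fell by 0.62 (adjusted p = 0.0205) in epididymal fat, with all levels of that fall under 5.71.

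In epididymal fat Hoxa5 came next in size, with 6.60 and 7.40 in wild-type and 7.33 and 6.83 in Mgl2-DTR mice in epididymal fat and 6.38 and 6.5 in wild-type and 6.64 and 6.54 in Mgl2-DTR mice in inguinal fat. In liver it read 4.72 and 5.06 in wild-type and 5.14 and 4.81 in Mgl2-DTR mice. No fat array fell within the liver range, and the differences were 2.10 (adjusted p = 8.66e-06) and 1.58 (adjusted p = 6.61e-05) for epididymal and inguinal fat. Hoxb6, a trunk gene of the Hoxb cluster, was 2.09 and 2.13 higher, from 4.79 to 5.57 in liver. Hoxd8 was 1.99 and 1.66 higher, from 4.39 to 5.37, and Hoxa6 was 1.22 and 1.35 higher, from 5.97 to 6.54. Hoxc4 was 1.01 and 0.80 higher, and all of these were called in both depots. Hoxb5 was 1.30 and 1.28 higher by its brighter probe, but its dimmer probe averaged 5.47 in epididymal fat, 5.50 in inguinal fat and 5.78 in liver and gave -0.31 (adjusted p = 0.11) for epididymal fat. Epididymal Mgl2-DTR replicate 2, the array with duct genes, raised some of these epididymal differences. Without it they were 1.67 for Hoxb6, 1.62 for Hoxd8 and 1.01 for Hoxb5. Hoxa5, Hoxa6 and Hoxc4 then stood at 2.23, 1.30 and 1.01.

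Among the Tbx genes the direction was mixed. Tbx3, a T-box repressor that is also active in hepatocytes, read 8.39 and 8.6 in wild-type and 8.11 and 8.18 in Mgl2-DTR mice in liver. In inguinal fat the levels were 7.36 and 7.37 in wild-type and 7.39 and 6.98 in Mgl2-DTR mice, below all liver arrays, and Tbx3 fell by 1.05 there (SE 0.289; adjusted p = 0.011). In epididymal fat it read 6.78 and 7.34 in wild-type and 7.04 and 8.58 in Mgl2-DTR mice, where only Mgl2-DTR replicate 2 reached the liver range, and it fell by 0.89 (adjusted p = 0.0217), or by 1.27 without that array. That call was lost without epididymal wild-type replicate 1, liver wild-type replicate 2 or liver Mgl2-DTR replicate 2, at adjusted p values of 0.0688, 0.0638 and 0.0576. Tbx18, a gene of the epicardium and somites, was 0.86 and 1.10 higher in epididymal and inguinal fat than in liver, and both were called. Tbx20, a heart gene, was too dim in all tissues to be tested, but read 6.06 and 5.75 in wild-type and 5.78 and 5.06 in Mgl2-DTR mice in liver against 3.79 to 4.10 and 3.92 to 4.04 in epididymal and inguinal fat, so that every liver array lay above every fat array. Tbx21, the gene for T-bet of T and natural killer cells, read 5.78 to 5.92, 5.83 to 6.26 and 5.97 to 6.18 in epididymal fat, inguinal fat and liver, and passed in no comparison, while the 13 T and NK cell genes averaged 4.96 to 5.72 over the 12 arrays.

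Epididymal fat fell under liver for Hoxc10, Hoxd10, Tbx3, Tbx5, Tbx10 and Tbx15. Tbx10 was at 5.96 to 6.47 in epididymal fat and 6.64 to 6.84 in liver and fell by 0.54 (adjusted p = 0.00249), with no overlap. Tbx5 fell by 0.47 and Tbx15 by 0.39 (adjusted p = 0.0123 and 0.00881), with all levels under the filter level. For Tbx15 the adjusted p was 0.0606 after a new quantile normalization. Hoxd10 fell by 0.26 (adjusted p = 0.0382) with overlapping arrays, a call that was lost when any of 10 arrays was left out. That of Hoxc10 was lost without any of 4. Without epididymal Mgl2-DTR replicate 2, the array with duct genes, 17 members were called in epididymal fat, 13 higher and 4 lower, beside 7966 of the 12710 genes, and Hoxb2 and Hoxb4 no longer passed.

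The comparison the study was made for is Mgl2-DTR minus wild-type within a tissue, 2 arrays against 2, and it asked whether depletion of CD301b-positive cells changed these genes. By limma 0 of the 27 genes passed in epididymal fat, where 0.0315% of all genes were called, 0 in inguinal fat (0.197%) and 0 in liver (0.0708%). At an unadjusted p under 0.05 there were 2, 1 and 2 of them, beside 887, 881 and 703 of the 12710 genes tested. The median change was 0.13 in epididymal fat, 0.04 in inguinal fat and -0.09 in liver, beside 0.00 in epididymal fat, 0.10 in inguinal fat and 0.01 in liver for all tested genes.

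In epididymal fat the smallest p belonged to Tbx2, a T-box repressor close to Tbx3, which read 5.51 and 5.79 in wild-type and 6.27 and 6.93 in Mgl2-DTR mice. The genotypes did not overlap, with Mgl2-DTR replicate 2 the highest, and the difference was 0.95 (SE 0.243; unadjusted p = 0.00337, limma adjusted p = 0.659). Without that array it was 0.62 (adjusted p = 0.998). Hoxb2, which acts in the hindbrain, read 5.64 and 5.86 in wild-type and 6.12 and 6.78 in Mgl2-DTR mice, a difference of 0.70 (adjusted p = 0.71), and Hoxd8 read 6.21 and 6.5 in wild-type and 6.60 and 8.08 in Mgl2-DTR mice, a difference of 0.99 (adjusted p = 0.71). For both, Mgl2-DTR replicate 2 was again the highest array, and without it the differences were 0.37 and 0.25.

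In inguinal fat Hoxa9 had the smallest p, at -0.56 (SE 0.225; unadjusted p = 0.0334, limma adjusted p = 0.689), from the array levels given above. Tbx21 was at 6.10 and 5.83 in wild-type and 6.26 and 6.15 in Mgl2-DTR mice, a difference of 0.24 (adjusted p = 0.768), and Hoxa3 at 5.67 and 5.75 in wild-type and 6.02 and 5.91 in Mgl2-DTR mice, a difference of 0.25 (adjusted p = 0.801). Tbx15 moved by only -0.03, with a 95% interval of -0.37 to 0.31, and Hoxc8 by 0.04, with an interval of -0.53 to 0.61. These intervals are narrow beside the depot difference of Tbx15 and the liver difference of Hoxc8.

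In liver Hoxd10, a posterior gene of the hindlimb, read 6.72 and 6.44 in wild-type and 6.26 and 6.16 in Mgl2-DTR mice. Both Mgl2-DTR arrays lay under both wild-type ones, by -0.37 (SE 0.136; unadjusted p = 0.0225, limma adjusted p = 0.776). Hoxc6, at -0.47 (adjusted p = 0.885), and Hoxa9, at -0.45, had the next smallest p and all their liver levels under 5.71. The genotypes did not overlap for 10, 12 and 9 of the 27 genes in epididymal fat, inguinal fat and liver, beside 29.5%, 46.9% and 34.4% of all genes.

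**Figure D4:**
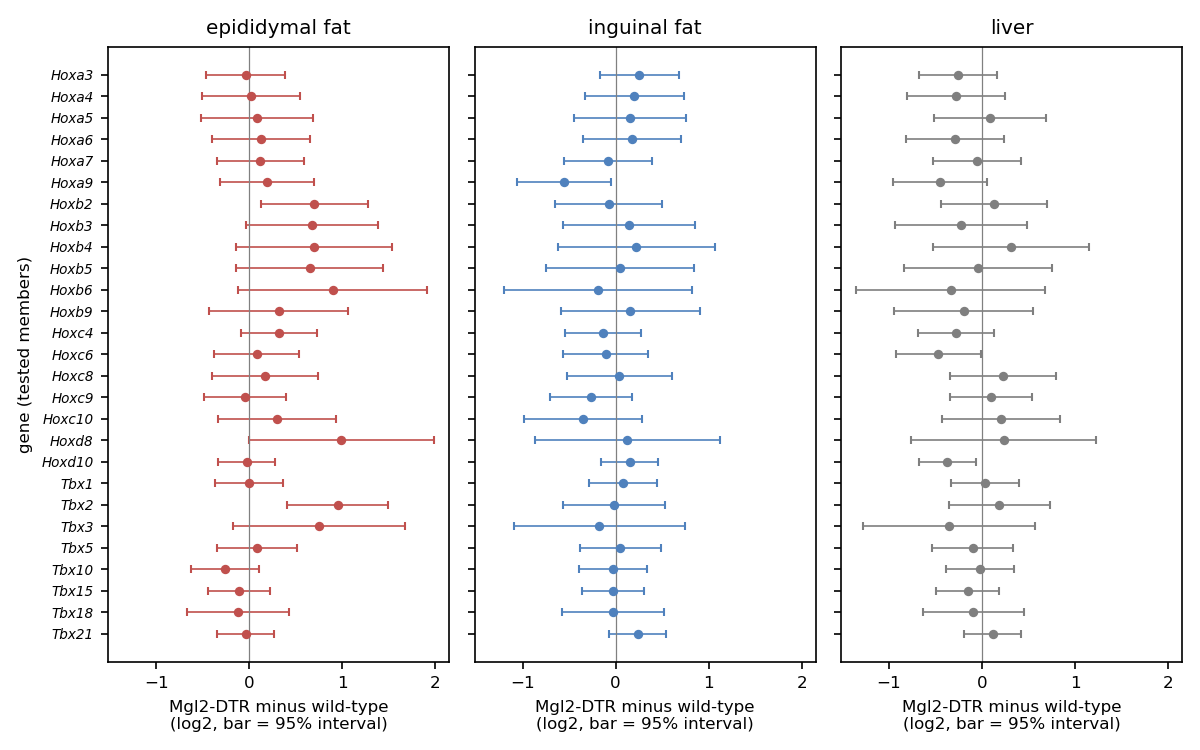
Mgl2-DTR minus wild-type difference in log2 level of the 27 tested genes in each tissue, with its 95% interval from the shared spread of the 6 groups (2 arrays against 2). No gene passed in any tissue; the changes run from -0.26 to 0.99 in epididymal fat, -0.56 to 0.25 in inguinal fat and -0.47 to 0.31 in liver, and the 6 Hoxb genes of epididymal fat, highest on 1 array, all lie above 0.

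1 array stood out for many of these genes within its own group. On epididymal Mgl2-DTR replicate 2, Hoxb8 read 7.61, against 4.66 to 4.91 on the other 3 epididymal arrays and 4.32 to 4.96 in inguinal fat. Hoxb6 read 8.49 against 6.53 to 6.99, Hoxd8 8.08 against 6.21 to 6.60, and Tbx3 8.58 against 6.78 to 7.34. This array also held the highest value of Hoxb2, Hoxb3, Hoxb4, Hoxb5, Hoxb7 and Hoxb9, by 0.57 to 1.22 over the next array, and of Hoxd3, Hoxd9, Tbx2 and Tbx22, by 0.67 to 0.83. No Hoxa or Hoxc gene was highest there by more than 0.5, so the step fell on some clusters and not on others: the 6 tested Hoxb genes all passed 0.5, as did Hoxd8, Tbx2 and Tbx3, which makes 9 of 27 tested members (33.3%) beside 3.79% of all tested genes. Hoxb3 is in this count although it passed the filter only through its level on this same array.

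The marker genes of other tissue moved with it. Duct genes were high on that array alone: Defb20 read 11.52 against 3.73 to 4.19 on the other 3 epididymal arrays, Lcn5 11.83 against 4.71 to 4.79 and Rnase10 6.89 against 2.95 to 2.99. Of the list of 12, 10 were found, and the sperm gene Prm1 (5.46 against 4.83 to 5.35) and Odf1 (11.68 against 11.84 to 12.40) did not follow. The 7 epithelial genes found averaged 8.07 against 5.83 to 6.31. Odf1 read 11.56 to 12.40 on all 12 arrays. The part of duct tissue in the Hoxb levels was not tested. Without the array, the genotype difference in epididymal fat was 0.06 for Hoxb3, Hoxb5 and Hoxb6, 0.09 for Hoxb4 and -0.02 for Tbx3, while Hoxb2 stood at 0.37, Hoxb9 at -0.26, Hoxd8 at 0.25 and Tbx2 at 0.62. The limma adjusted p was 0.998 for each of these 9 genes. With the other Mgl2-DTR array left out instead, Mgl2-DTR replicate 2 stood alone against 2 wild-type arrays. Hoxb3, Hoxb6, Tbx2 and Tbx3 then differed by 1.28, 1.73, 1.28 and 1.52. This array is described because such genes were highest on it. The direction was thus fixed in advance, and nothing about genotype is read from it. Hoxb3 could be tested only through this array, since it read 6.85 there and 5.51 to 5.63, under the filter level, on the other 3 epididymal arrays.

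The promoter of Hoxb8 is shown because this gene had the largest step on that array. It is the 250 bases before the RefSeq start site (GRCm38.p6, chromosome 11, plus strand), with the same motifs in capitals.
Hoxb8 (chr11:96281655-96281904): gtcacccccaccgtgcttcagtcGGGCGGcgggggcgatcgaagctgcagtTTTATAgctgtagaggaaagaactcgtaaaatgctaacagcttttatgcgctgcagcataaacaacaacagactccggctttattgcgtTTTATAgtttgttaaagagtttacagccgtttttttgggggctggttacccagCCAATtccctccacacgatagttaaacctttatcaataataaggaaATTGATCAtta
It holds the letters of 2 TATA boxes and a Hox-Pbx site, read on the opposite strand. It also holds those of a CCAAT box and a GC box, and 12 CpG. No factor's binding was measured here.

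**Figure D5:**
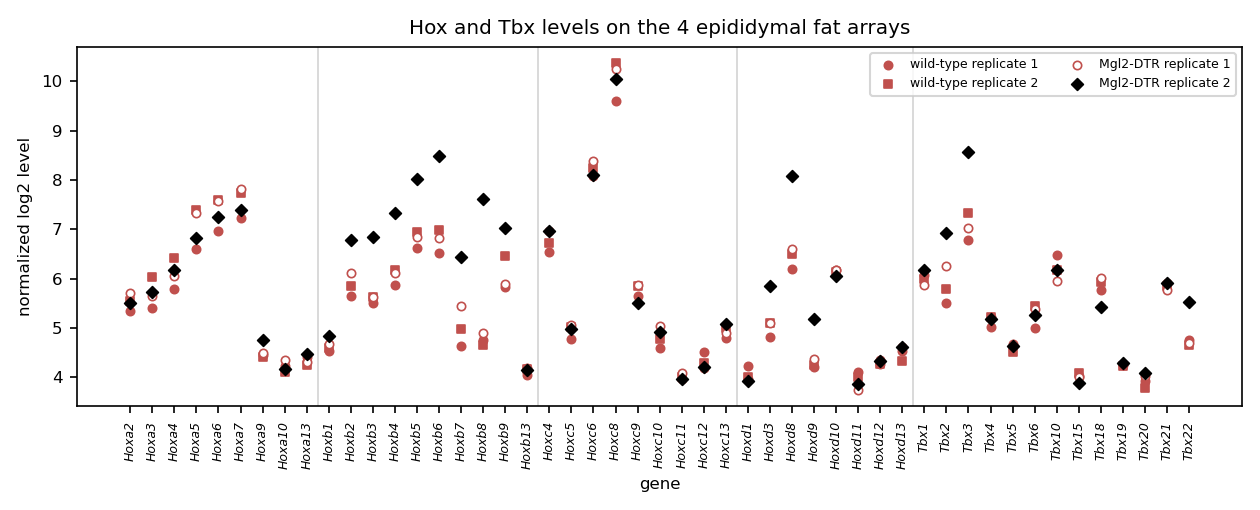
Normalized log2 level of the 49 genes on the 4 epididymal fat arrays (circles and squares, the 3 arrays without duct genes; black diamonds, Mgl2-DTR replicate 2), with lines between the gene families. The diamonds lie above the other arrays for Hoxb2 to Hoxb9, Hoxd3, Hoxd8, Hoxd9, Tbx2, Tbx3 and Tbx22, and within or near them for the Hoxa and Hoxc genes.

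Genes that act with or upstream of Hox and Tbx genes were counted from lists, in the comparison of inguinal with epididymal fat, where 7.43% of all tested genes were called. Of 7 tested Hox cofactors, 0 were higher and 1 was lower in inguinal than in epididymal fat: Meis1, which binds DNA together with Hox and Pbx proteins, at 7.77 and 8.23 in wild-type and 8.18 and 7.94 in Mgl2-DTR mice in epididymal and 7.36 and 7.21 in wild-type and 7.29 and 7.27 in Mgl2-DTR mice in inguinal fat, a fall by 0.75 (SE 0.125; limma adjusted p = 0.00878). Of 21 tested Polycomb genes, which keep Hox genes silent, 1 was lower, Rbbp7 (-0.56, adjusted p = 0.0365), and of 13 Trithorax genes, which keep them active, none passed, with Kmt2c, Kmt2d and Men1 at 0.28, 0.21 and 0.17 (adjusted p = 0.124, 0.207 and 0.273). Of 10 genes of retinoic acid, Wnt, Cdx and Gdf signalling, 1 was higher and 2 were lower. The last were Aldh1a2, an enzyme that makes retinoic acid, at 8.06 and 7.81 in wild-type and 7.5 and 7.40 in Mgl2-DTR mice in epididymal and 5.71 and 6.47 in wild-type and 5.34 and 5.33 in Mgl2-DTR mice in inguinal fat, a fall by 1.98 (adjusted p = 0.000216), and its relative Aldh1a3, a fall by 0.90 (adjusted p = 0.0119). Gdf11, a signal for tail-ward Hox genes in the embryo, was 0.56 higher (adjusted p = 0.0254), with epididymal levels under 5.71. Gdf11 passed the filter through inguinal fat alone and Aldh1a2 through epididymal fat alone.

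Of 23 other transcription factors that mark position or depot, 4 were higher and 5 lower, beside 4.11% and 3.32% of all tested genes. Shox2, a limb gene, was 1.62 higher (SE 0.125; adjusted p = 0.000148), while Bnc1, Tcf21 and Wt1, known from the lining and the stroma of abdominal organs, fell by 2.10, 1.87 and 1.54 (adjusted p = 0.00062, 0.000202 and 0.00021). Shox2 passed the filter through inguinal fat alone and Bnc1 through epididymal fat alone, with the levels of the other tissues under 5.71. Mesothelial markers, a list that also holds Wt1 and Bnc1, averaged 7.30 to 8.23 in epididymal and 5.19 to 5.57 in inguinal fat, and their part in these falls was not tested. The only tested T-box gene of another name, Mga, the only tested Hox antisense transcript, Hoxd3os1, and the only tested neighbour of the Hox family, Meox1, did not pass, at -0.18, 0.07 and 0.30. No gene of any of these lists was called between genotypes in any tissue.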

How the data were processed

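12 Affymetrix mouse gene arrays (6 groups of 2) were analysed. The authors deposited normalized log2 values for 41345 probes; the submitters' processing notes name limma, and how background, normalization and probe sets were handled is not given in the sources used here. Per the labels' protocols, RNA was taken with Trizol and RNeasy columns, treated with DNase I and labelled with the GeneChip WT PLUS kit. Of the probes, 23521 carry 1 gene symbol, 1814 several and 16010 none; all 49 members matched RefSeq by Entrez number. The values were used as deposited. limma 3.58.1 (R 4.3.3) was fitted with 1 mean per group to all 12 arrays, which share 1 estimate of the spread, with lmFit and eBayes. Of 22180 genes, 12710 passed the filter on dim genes (5.71); p-values were adjusted by Benjamini-Hochberg over these, and under 0.05 was called. The fit was tested on simulated data. Named genes were all called members by size of change, or the 3 smallest p where none was called, with paralogs of the same number and up to 4 genes a list. Members, lists and this rule were chosen with earlier results of these data known. Replicate numbers were not used to pair samples in the main fit. The replicate 2 minus replicate 1 differences of the tested genes correlated at -0.121 to 0.121 between groups. These pairs of groups mix tissues and genotypes, so they cannot show whether tissues came from the same mice. Alternatives covered filters, probes, scaling, weights, blocks and left-out arrays.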

Additional observations from a re-analysis of the deposited data

Results flagged for a closer look

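In 7 cases both Mgl2-DTR arrays of a tissue lay on one side of both wild-type arrays and on the opposite side in another tissue. Between inguinal and epididymal fat these were Hoxa9, at -0.56 in inguinal and 0.19 in epididymal fat (a difference of -0.748), and Hoxc4, at -0.14 and 0.32 (a difference of -0.457). The limma test of that difference gave an adjusted p of 0.995 for both. All epididymal levels of Hoxa9 (4.41 to 4.76) lay under 5.71 and may sit at background. Such opposite pairs made up 7.41% of the 27 tested members, beside 4.45% of all tested genes.

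Between liver and epididymal fat there was 1, Hoxb3, at -0.22 in liver and 0.67 in epididymal fat (a difference of -0.894), or 3.7% of members beside 5.96% of all genes. Without the epididymal array that carries duct genes, the epididymal difference of Hoxb3 was 0.06. Between liver and inguinal fat there were 4, or 14.8% beside 8.82% of all genes. Hoxa3 stood at -0.26 in liver and 0.25 in inguinal fat (-0.511), Hoxa6 at -0.29 and 0.18 (-0.468), Hoxb9 at -0.20 and 0.16 (-0.355), and Hoxd10 at -0.37 and 0.15 (-0.522). The differences that involve liver were not tested. Liver levels of Hoxb3 (4.73 to 5.12) and Hoxa3 (4.89 to 5.23) all lay under 5.71 and may sit at background.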

How the results depend on the processing

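Leaving out 1 array at a time gave 6 to 8 of the Hox and Tbx genes called between the depots, 3 to 10 in Mgl2-DTR mice alone (10, of which 5 lower, without epididymal Mgl2-DTR replicate 1) and 0 to 4 between genotypes in epididymal fat (4 without the same array). With the filter at the 75th percentile only 3 members could be tested. The calls fell to 0 between depots, beside 735 of 7241 genes, to 0 in each genotype alone, and to 3 against liver for each depot. With no filter 32 of 49 were called between epididymal fat and liver, a comparison in which 66% of all tested genes were called in the main fit. A minimum change of 1 left 8 in epididymal and 13 in inguinal fat against liver. Nothing particular to Hox and Tbx genes is read from the counts against liver. Without the muscle-bearing inguinal arrays the depot calls were 3 in wild-type and 1 in Mgl2-DTR mice. The second probe of Hoxb5 gave -0.311 for epididymal fat minus liver; the cause was not tested.

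For 51 differences of members named in the report, 1215 of 1256 values kept direction and side of the threshold and 39 lost the call. Part of this share was fixed in advance. Only Hoxb5 has a second probe, so that setting repeated the difference of every other member. Leaving out an array of a tissue outside the comparison also left the difference as it was. Genotype differences that were never called count as kept while they stay uncalled. Without epididymal Mgl2-DTR replicate 1, the genotype differences of Tbx2, Hoxb3, Hoxb6 and Tbx3 in epididymal fat rested on the array with duct genes alone. These genes were highest on that array. With a replicate block the counts were 6, 5, 5, 22, 19, 0, 0, 0 and 0 in the order of the report, and exchanging the numbers in Mgl2-DTR inguinal fat, an alternative chosen after seeing the data, gave the same counts. The depot calls were 7 (1 lower) without both epididymal arrays that stand apart, also chosen after seeing the data. With 2 arrays a group, small differences could not be shown, and dim levels understate change.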

Other observations

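Epididymal wild-type replicate 1 held the lowest epididymal value for 18 of the 27 tested members (66.7%), the 6 Hoxb genes among them, beside 36.4% of all tested genes. Macrophage markers averaged 10.42 on this array and 9.75 on the other wild-type epididymal array. They averaged 8.81 and 8.52 on the Mgl2-DTR epididymal arrays, from mice given toxin to deplete CD301b-positive phagocytes, and the list holds Mgl2 itself. The part of these cells was not tested.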
